A study of Mus musculus with 6 samples.

Results

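The cytotoxic granule genes described here are 10 mouse genes: the pore former Prf1, the granzymes Gzmb, Gzmc, Gzmk and Gzmm, the granule proteases Ctsw and Cma1, the membrane protein Nkg7, the proteoglycan core Srgn and the inhibitor Serpinb9. They were taken by gene symbol from the annotation of an Illumina mouse bead array and are read by 13 of its 45281 probes. Total RNA was measured in NK1.1+ spleen cells of 3 TLR7tg mice, which carry a Tlr7 transgene and develop a lupus-like disease, and of 3 B6 wild-type mice. The sample labels write NK1.1+ only for TLR7tg and NK for B6, whereas the series design writes NK1.1+ of both strains. Age, sex, the sorting gate, the promoter of the transgene and any treatment are not given in the sources used here. In the labels, the mouse ID field differs among all 6 samples, but the title of TLR7tg replicate 1 gives the identifier of B6 replicate 1, against its own mouse ID field and description. P-values set the difference between the groups against the spread within the groups of these 6 samples, with that spread moderated across probes. Signals are the deposited log2 values, which share a nearly identical distribution in all 6 mice.

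Natural killer (NK) cells kill target cells by releasing the contents of secretory lysosomes, the cytotoxic granules, into the contact zone. Perforin, the product of Prf1, opens the target membrane, and granzymes, a family of serine proteases, enter through it and start cell death. Serglycin, the product of Srgn, is the proteoglycan on which perforin and granzymes are stored, Nkg7 sits in the granule membrane and takes part in exocytosis, and Serpinb9 inhibits granzyme B and so shields the killer cell. Resting mouse NK cells are known to hold Gzmb transcripts with little granzyme B protein. Gzmb, Gzmc and Cma1, a mast cell chymase gene, lie together on chromosome 14, and Prf1, Gzmm and Srgn lie on chromosome 10.

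Upstream sequences of 250 bases, ending at the base before the annotated start, were read from the RefSeq promoter table of build GRCm38.p6, which held 9 of the 10 genes in 11 windows. Nkg7 and Prf1 are shown as genes that were lower in TLR7tg, Gzmb as a gene below the detection level in both groups, and the first start of Srgn as that of a gene that did not pass the test. Capitals mark matches on either strand to GGTGTGA (T-box), TGTGGT (RUNX), TTCNNNGAA (STAT) or CAGGAAG (ETS), and all other bases are in lower case.
Nkg7, chr7:43436888-43437137, plus strand: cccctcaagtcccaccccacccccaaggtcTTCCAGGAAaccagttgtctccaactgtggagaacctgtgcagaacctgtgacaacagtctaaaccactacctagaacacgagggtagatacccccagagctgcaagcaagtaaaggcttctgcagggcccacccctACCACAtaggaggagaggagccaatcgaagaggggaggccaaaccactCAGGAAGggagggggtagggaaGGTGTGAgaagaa
Prf1, chr10:61297586-61297835, plus strand: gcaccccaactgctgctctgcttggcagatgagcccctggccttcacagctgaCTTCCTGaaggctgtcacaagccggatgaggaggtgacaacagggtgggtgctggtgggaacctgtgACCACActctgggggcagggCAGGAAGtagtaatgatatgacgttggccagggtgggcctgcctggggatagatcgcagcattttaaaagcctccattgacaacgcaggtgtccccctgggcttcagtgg
Gzmb, chr14:56262335-56262584, minus strand: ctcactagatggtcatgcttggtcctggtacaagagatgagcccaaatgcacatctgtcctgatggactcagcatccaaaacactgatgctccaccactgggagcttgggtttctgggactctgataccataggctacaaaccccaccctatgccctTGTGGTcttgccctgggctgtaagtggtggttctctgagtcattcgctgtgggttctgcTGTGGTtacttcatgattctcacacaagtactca
Srgn, chr10:62527446-62527695, minus strand: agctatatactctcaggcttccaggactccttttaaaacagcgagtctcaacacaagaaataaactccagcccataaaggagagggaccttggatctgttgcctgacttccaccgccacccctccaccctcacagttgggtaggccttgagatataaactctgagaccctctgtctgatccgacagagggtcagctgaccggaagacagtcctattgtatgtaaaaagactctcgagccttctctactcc
The Nkg7 window holds 1 match to each of the 4 motifs, with the T-box letters at 13 to 7 bases before the start. The Prf1 window holds 1 RUNX match and 2 ETS matches, the Gzmb window holds 2 RUNX matches, and none of these letters are in the Srgn window shown, while its other start has 1 RUNX match. Among the 11 windows the T-box letters are in 3 (Nkg7, Gzmk and 1 start of Gzmm), against 3.33% of all 32851 windows of the table. The RUNX letters are in 6 of the 11, against 14.05% of all windows, the ETS letters in 3, against 10.82%, and the STAT letters in 2, against 7.02%. The window of Cma1, which fell in TLR7tg, holds 0 matches, and that of Gzmc, below the detection level in both groups, holds 3. The matches therefore do not sort the genes by their difference. These matches describe letters in short windows, and binding was not measured here.

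Tlr7, the receptor gene carried by the transgene, checks the labels. Its signal was 13.04, 14.45 and 13.92 in the 3 TLR7tg mice, against 8.48, 9.39 and 9.53 in the B6 mice, so that the groups did not overlap. A detection level of 6.9 was set from the scanner's detection p-values. Probes at or above it in at least 3 of the 6 mice were tested, 16535 in all, and 9173 genes were read through their brightest tested probe. Over these genes the median difference, TLR7tg minus B6, was -0.06, and differences ran from -0.87 at the lowest 5% to 1.12 at the highest 5%.

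Of the 10 granule genes 5 fell in TLR7tg cells (Nkg7, Ctsw, Cma1, Prf1 and Gzmm), 0 rose, Gzmk and Srgn did not pass, and Gzmb, Gzmc and Serpinb9 lay below the detection level in all 6 mice and were not tested. Over all genes tested 6.97% were lower and 7.74% higher (14.7% in either direction) at an adjusted p under 0.05 (limma, Benjamini-Hochberg). The median difference of the 7 tested genes was -3.70, against -0.06 over all genes. Cma1, with 2 of 3 TLR7tg mice at or above the level on its brighter probe, passed the filter in part through the B6 mice. Gzmk passed with 2 TLR7tg mice and 1 B6 mouse. The other tested granule genes reached the level in all 6 mice. The groups did not overlap in the 5 genes that fell, and over all genes the groups did not overlap in 32.7%, with TLR7tg lower in 18.5% and higher in 14.1%. The 5 genes were among the 74 largest falls of the 9173 genes, with Nkg7 at rank 5, Ctsw at rank 7, Cma1 at rank 12, Prf1 at rank 13 and Gzmm at rank 74. In whole-cell-population RNA, fewer cells of a type and less RNA per cell cannot be told apart.

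**Figure D1:**
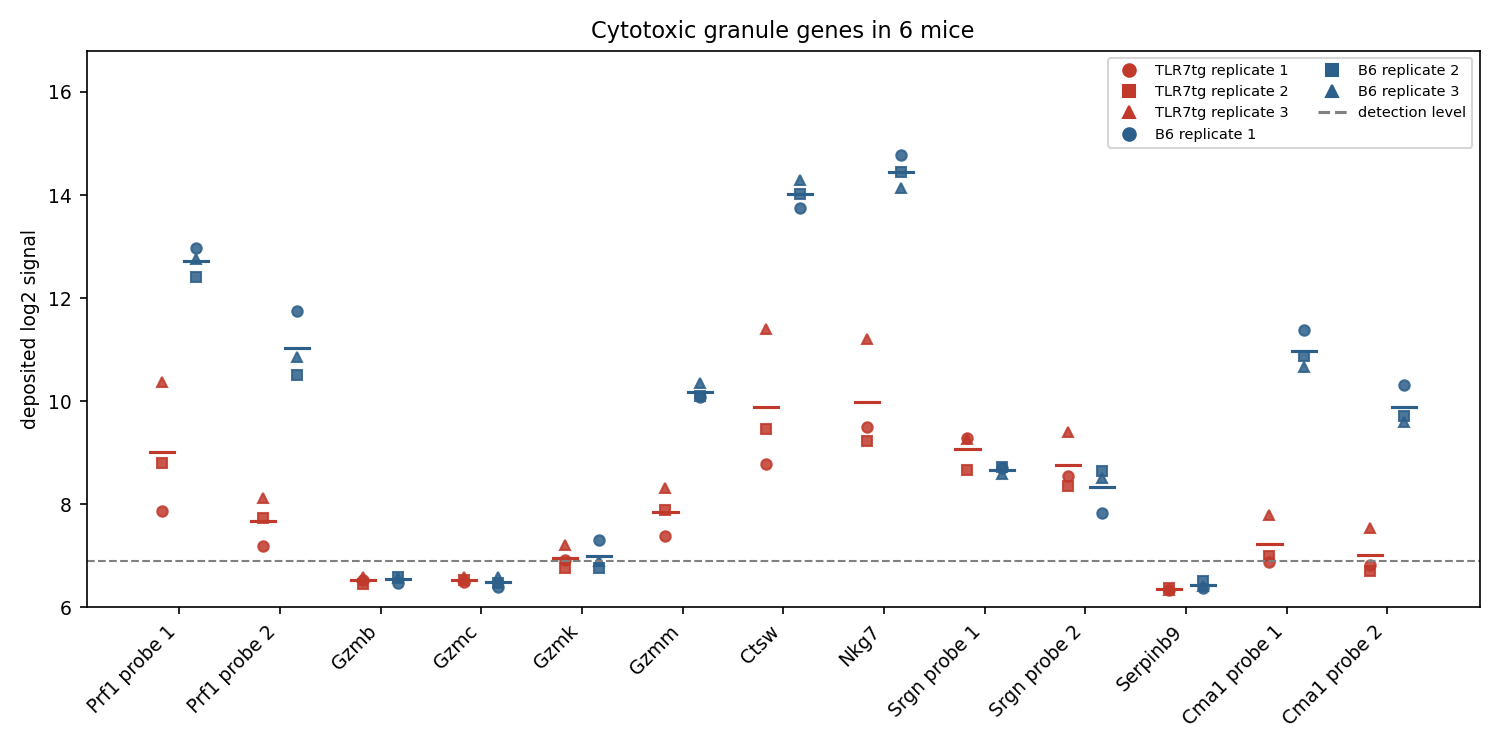
Deposited log2 signal (vertical axis) of the 13 probes of the 10 granule genes in each mouse, with TLR7tg mice in red on the left and B6 mice in blue on the right of each probe, short lines at group means and a dashed line at the detection level of 6.9. Both probes of Prf1 and of Cma1 and the probes of Gzmm, Ctsw and Nkg7 separate the groups, those of Gzmk and Srgn do not, and Gzmb, Gzmc and Serpinb9 lie under the dashed line in all mice.

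Perforin is the protein that lets granzymes into the target. Probe ILMN_2960700 of Prf1 gave 7.87, 8.81 and 10.37 in TLR7tg mice, against 12.97, 12.42 and 12.76 in B6 mice. The TLR7tg mice were spread over a wide range, all of it below the B6 values. The mean was 9.02 ± 1.26 (SD, n = 3) in TLR7tg and 12.71 ± 0.28 (SD, n = 3) in B6, which is -3.70 on the log2 scale (SE 0.52, 95% interval -4.87 to -2.52, limma adjusted p = 0.00209) and 13.0-fold lower. The other Prf1 probe, ILMN_1228333, gave 7.20, 7.73 and 8.12 in TLR7tg mice and 11.75, 10.50 and 10.86 in B6 mice, and fell by 3.35 (SE 0.34, limma adjusted p = 0.000529). The order of the TLR7tg mice was the same on both probes, with replicate 1 lowest and replicate 3 highest. Prf1 differed by -5.09 between the 2 mice whose slide the labels name (replicate 1 of each group) and by -2.998 in the remaining 4 mice.

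Granzymes gave a mixed picture. Gzmm, a granzyme that cleaves after methionine and related residues, had signals of 7.38, 7.88 and 8.32 in TLR7tg mice, against 10.08, 10.10 and 10.36 in B6 mice. The B6 mice lay close together (SD 0.15, n = 3) and all TLR7tg mice were below them. Gzmm fell by 2.32 (SE 0.25, limma adjusted p = 0.000584), or 4.995-fold, with a difference of -2.70 between the 2 mice of the named slide and -2.13 in the remaining 4.

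Gzmk, a tryptase-like granzyme known from T cells and some NK cells, lay at the edge of detection. It had 6.93, 6.76 and 7.21 in TLR7tg mice and 7.32, 6.77 and 6.895 in B6 mice, with 2 TLR7tg mice and 1 B6 mouse at or above 6.9. The groups overlapped, and the difference of -0.03 had a 95% interval from -0.50 to 0.44 (limma adjusted p = 0.965). Since no background was subtracted, a difference of so dim a gene may be understated. The sign turned with the mice used, at -0.39 within the named slide and 0.15 in the remaining 4 mice.

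Gzmb, the main killer granzyme, and Gzmc, its neighbour, gave no signal above the detection level. Gzmb had 6.53, 6.45 and 6.59 in TLR7tg mice, against 6.47, 6.58 and 6.58 in B6 mice. Gzmc had 6.49, 6.53 and 6.59 in TLR7tg mice, against 6.39, 6.47 and 6.59 in B6 mice. Each of these genes has a single probe on the array, so that a probe that does not bind and a transcript below detection cannot be told apart. Granzymes of this cluster are similar in sequence, and a probe may read more than one of them.

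Ctsw encodes cathepsin W, a cysteine protease found mainly in NK cells and cytotoxic T cells. Its signal was 8.78, 9.45 and 11.40 in TLR7tg mice, against 13.74, 14.02 and 14.30 in B6 mice. It fell by 4.14 (SE 0.55, limma adjusted p = 0.00174), or 17.6-fold. TLR7tg replicate 3 stood above the other TLR7tg mice and below every B6 mouse. Within the named slide Ctsw differed by -4.96, and in the remaining 4 mice by -3.73.

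Cma1 encodes a chymase, named for mast cells. Probe ILMN_2997068 gave 6.88, 6.998 and 7.79 in TLR7tg mice, against 11.37, 10.87 and 10.66 in B6 mice, and 2 of 3 TLR7tg mice were at or above the detection level. Cma1 fell by 3.74 on it (SE 0.28, limma adjusted p = 0.000189), or 13.4-fold. With TLR7tg values near the detection level and no background subtracted, this fold may be understated. All TLR7tg mice were below all B6 mice. Probe ILMN_1225727 gave 6.82, 6.70 and 7.54 in TLR7tg mice, against 10.31, 9.72 and 9.61 in B6 mice. Cma1 fell by 2.86 on this probe (SE 0.28, limma adjusted p = 0.000425), where 1 of 3 TLR7tg mice reached the level. Within the named slide the first probe differed by -4.49, and in the remaining 4 mice by -3.37. Of 13 basophil and mast cell markers on the array the mast cell protease genes Mcpt4 and Tpsb2 and the IgE receptor chain gene Ms4a2 lay below the detection level in all 6 mice. The 13 markers' summed linear signal was 1905 to 4016 in TLR7tg mice and 2601 to 2998 in B6 mice. Of the 6 tested, Hdc rose by 2.20 and Prss34, below the detection level in all B6 mice and tested only through the TLR7tg mice, was at least 2.92-fold higher than that level. Kit, which NK cells can also express, fell by 2.30, and 3 did not pass. Hdc did not pass without B6 replicate 2 or 3, nor Prss34 without any single B6 mouse or TLR7tg replicate 2. The part of such cells in the Cma1 values was not tested.

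Nkg7, the granule membrane protein gene, had the largest fall among the 10 genes on the deposited values. With normexp background correction at offset 16, run on the deposited values and not on scanner intensities, Cma1 differed by -4.60 and Nkg7 by -4.58. Its signal was 9.50, 9.23 and 11.22 in TLR7tg mice, against 14.77, 14.45 and 14.14 in B6 mice. It averaged 9.98 ± 1.08 (SD, n = 3) in TLR7tg and 14.46 ± 0.31 (SD, n = 3) in B6, and was 22.2-fold lower (limma adjusted p = 0.000547). On the scanner arrays its B6 signals lay close to the brightest of the array, so the fold would be a lower bound if the probe was saturated, which was not tested. All TLR7tg mice lay far below all B6 mice. Within the named slide Nkg7 differed by -5.27, and in the remaining 4 mice by -4.08.

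Srgn, the serglycin core gene, is also expressed by neutrophils, mast cells and other blood cells, and it did not pass the test. Probe ILMN_2751527 gave 9.28, 8.66 and 9.27 in TLR7tg mice, against 8.70, 8.72 and 8.58 in B6 mice. TLR7tg replicates 1 and 3 were above all B6 mice, and TLR7tg replicate 2 lay among them. The difference of 0.40 had a 95% interval from -0.07 to 0.87 (limma adjusted p = 0.279). Probe ILMN_2722732 gave 8.54, 8.35 and 9.39 in TLR7tg mice and 7.83, 8.64 and 8.51 in B6 mice, a difference of 0.44 with a 95% interval from -0.27 to 1.14 (limma adjusted p = 0.458). The lower bounds of both intervals are far above the differences of the 5 genes that fell.

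Serpinb9, the granzyme B inhibitor gene, was dim in all mice. It had 6.34, 6.37 and 6.33 in TLR7tg mice, against 6.38, 6.52 and 6.42 in B6 mice. The groups did not overlap, but all 6 values lay below the detection level and differ by little, so no difference in transcript is read from them.

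**Figure D2:**
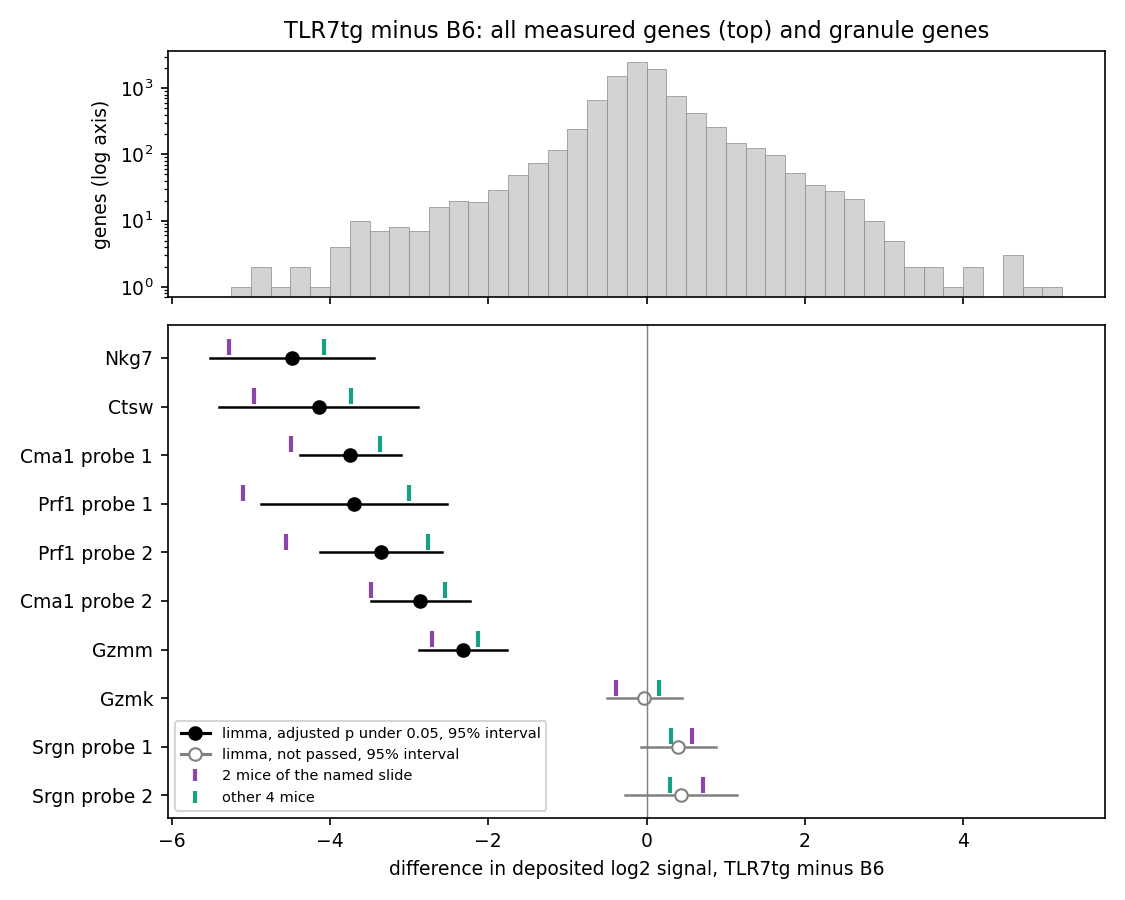
Top, the number of genes (log axis) by difference in deposited log2 signal, TLR7tg minus B6, over the 9173 genes. Bottom, the limma difference and 95% interval of the 10 tested probes of granule genes on the same horizontal axis, filled where adjusted p was under 0.05, with purple ticks for the 2 mice of the named slide and green ticks for the other 4 mice. The 7 filled probes lie between -4.47 and -2.32, and the purple ticks are further from 0 than the green ones on each of these 7 probes.

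The scanner table gives unnormalised signals for the technical arrays of replicate 1 of each group, 2 per mouse. Nkg7 read 3427 and 4827 on the TLR7tg arrays, against 65873 and 66568 on the B6 arrays, whose brightest probes read 71996 and 70907. Prf1 (ILMN_2960700) read 748 and 1007 on the TLR7tg arrays and 19296 and 19531 on the B6 arrays, and Ctsw read 1939 and 2572 on the TLR7tg arrays and 32321 and 36023 on the B6 arrays. In these 3 genes both TLR7tg arrays read lower than both B6 arrays, and with 1 mouse per group the spread between mice is not in these values. Cma1 (ILMN_2997068) read 159 and 208 on the TLR7tg arrays, each with a detection p-value of 0.00748, against 6370 and 7019 on the B6 arrays. Gzmb read 95.6 and 119.0 on the TLR7tg arrays and 81.3 and 88.03 on the B6 arrays, with detection p-values from 0.690 to 0.918, and the probes of Gzmc and Serpinb9 were likewise undetected on all 4 arrays.

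The difference of Srgn was larger on the scanner scale than on the deposited one. Probe ILMN_2751527 read 2743 and 4221 on the TLR7tg arrays, against 986 and 1095 on the B6 arrays. In log2 units its scanner difference was 1.71, or 1.34 after subtraction of the median difference of all probes between these mice (0.37), while the deposited values of the same mice differ by 0.58. Its rank among all probes was at the 91.9th and 92.4th percentile on the TLR7tg arrays and at the 88.6th and 88.8th percentile on the B6 arrays. For Nkg7 the scanner difference after the same subtraction was -4.39, against -5.27 in the deposited values, and for Cma1 (ILMN_2997068) it was -5.57, against -4.49. For Prf1 it was -4.85 and -5.06 on the 2 probes, so on this scale Cma1 and Prf1 differed more than Nkg7. Fold values therefore hold on the deposited scale only, and the scanner values concern 1 mouse per group.

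**Figure D3:**
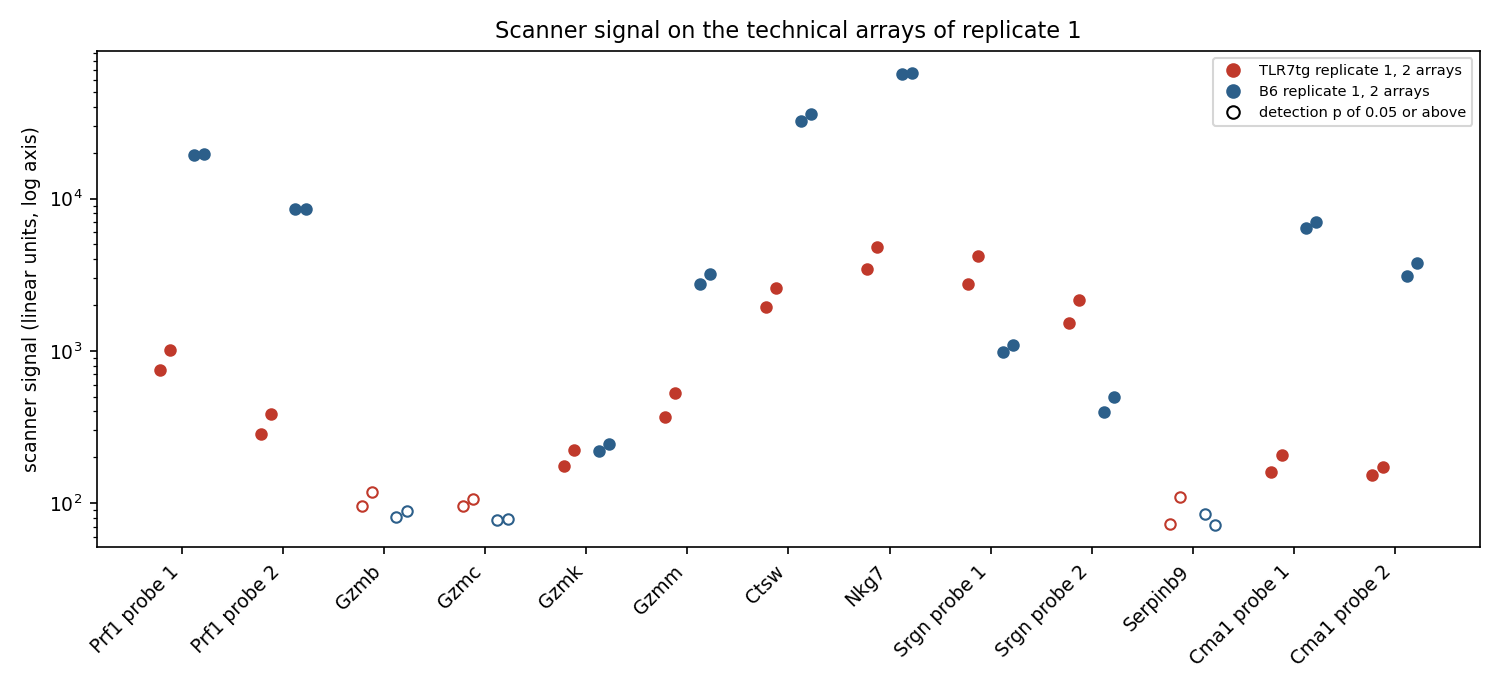
Scanner signal (vertical log axis, linear units) of the 13 probes on the technical arrays of TLR7tg replicate 1 (red, left) and B6 replicate 1 (blue, right), 2 arrays each, open where the detection p-value was 0.05 or above. Open points are those of Gzmb, Gzmc and Serpinb9, and both Srgn probes are higher on the TLR7tg arrays.

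The 5 genes that fell did not fall equally in the 3 TLR7tg mice. All 7 of their probes were highest in TLR7tg replicate 3 among the TLR7tg mice. The mean log2 signal over the 5 genes was 8.08, 8.47 and 9.82 in TLR7tg replicates 1, 2 and 3, against 12.59, 12.37 and 12.44 in those of B6. The mean over 10 NK cell markers was 7.37, 7.46 and 8.21 in TLR7tg mice and 10.06, 10.10 and 10.19 in B6 mice, and 8 of the 10 markers were highest in TLR7tg replicate 3 among the TLR7tg mice. Neutrophil markers ran the other way there, with a mean of 11.11, 11.59 and 8.40 in TLR7tg mice and 7.46, 7.28 and 6.82 in B6 mice, and all 8 tested were lowest in replicate 3 among the TLR7tg mice. Of 7 tested monocyte markers 3 were highest and 3 lowest in that mouse. All 4 tested B cell markers were lowest in it and all 3 tested platelet markers highest. The share over all genes was not counted, so nothing particular to these lists is read from the counts. Without TLR7tg replicate 3 the same 5 granule genes fell, with Prf1 at -4.37, Ctsw at -4.90, Nkg7 at -5.09, Cma1 at -4.03 and Gzmm at -2.55 (limma adjusted p from 4.08e-05 to 0.000529).

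**Figure D4:**
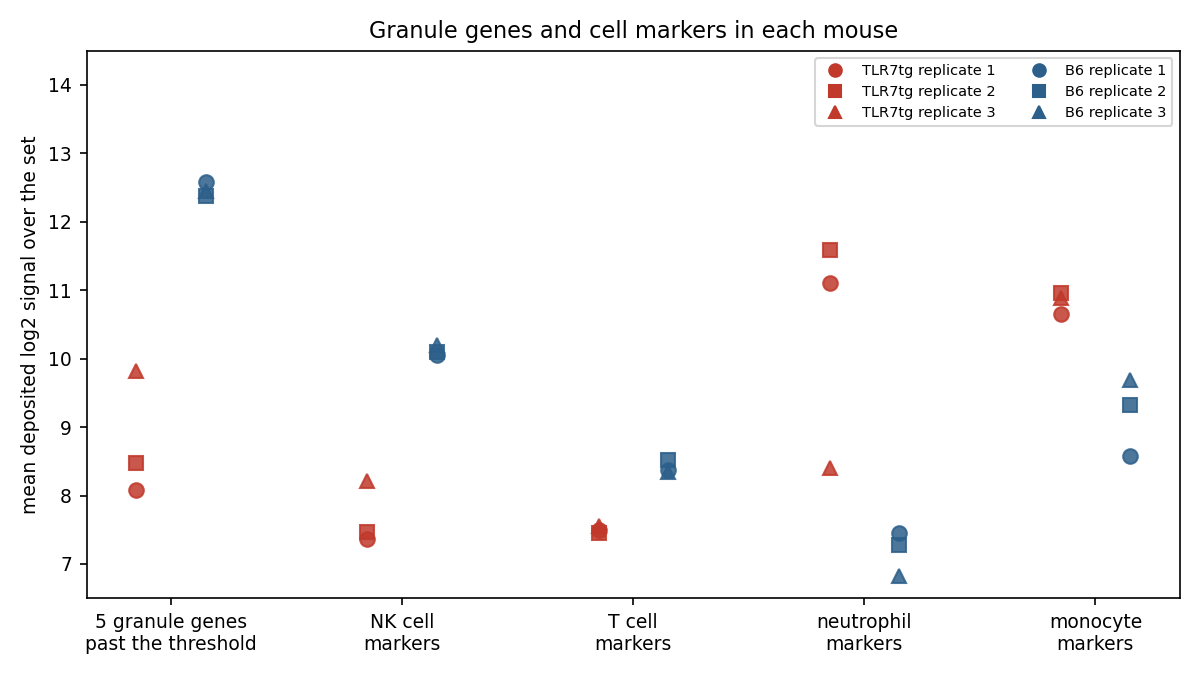
Mean deposited log2 signal (vertical axis) in each mouse over the 5 granule genes that fell and over the markers of NK cells, T cells, neutrophils and monocytes, with TLR7tg mice in red on the left and B6 mice in blue on the right, and a marker shape per replicate. TLR7tg replicate 3 has the highest granule gene mean (9.82) and NK marker mean (8.21) and the lowest neutrophil marker mean (8.40) among the TLR7tg mice.

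Of 10 NK cell markers on the array 9 fell, and their summed linear signal was 1963 to 5133 in TLR7tg mice, against 26207 to 33643 in B6 mice. With detection required in all 6 mice 5 NK cell markers were measured and 4 fell. On the main filter the largest falls were of the receptor genes Klre1 (-4.54), Klra8 (-4.43), Klrd1 (-3.86) and Klrk1 (-3.38). Klra8 reached the detection level in 1 of 3 TLR7tg mice. Klrb1c, which encodes the sort marker NK1.1 in B6 mice and was picked with its values known, had 7.08, 7.41 and 7.92 in TLR7tg mice, against 8.96, 9.93 and 10.02 in B6 mice, and fell by 2.17 (limma adjusted p = 0.00258). Ncr1, Klrc1 and Itga2, which help define NK cells, were below detection in each TLR7tg mouse. These genes were also picked with their values known and were tested only through the B6 mice. Cd244a was the marker that did not pass, with groups that overlapped (-0.42, limma adjusted p = 0.325). Of 10 T cell markers on the array 7 were tested and 4 fell, Cd3d, Lat, Cd3e and Cd3g (-2.42, -1.67, -1.64 and -1.59), with a summed signal of 2384 to 2422 in TLR7tg mice and 4798 to 5586 in B6 mice. Cd8b1 (-0.18), Cd6 (-0.60) and Cd28 (-0.82) did not pass (limma adjusted p = 0.650, 0.0796 and 0.160). Cd8a and Cd5 lay below the level in all mice. Of 10 neutrophil markers on the array 8 were tested and 7 rose, with a summed signal of 5564 to 86168 in TLR7tg mice and 1202 to 1917 in B6 mice, and of 8 monocyte markers on the array 7 were tested and 6 rose, with 51000.5 to 53041 in TLR7tg mice and 6578 to 17970 in B6 mice. The neutrophil genes S100a8 (5.07), Ltf (4.81), S100a9 (4.73) and Lcn2 (4.55) and the monocyte genes Fcgr4 (3.43), Ace (2.31), Csf1r (2.20) and Lyz2 (1.71) rose most in these lists. Beside the marker counts of this paragraph, 7.74% of all genes tested were higher and 6.97% lower. The neutrophil count fell to 3 without TLR7tg replicate 2, B6 replicate 2 or B6 replicate 3, and the monocyte count to 4 without TLR7tg replicate 2. With no filter on dim probes 1 of 10 neutrophil markers and 2 monocyte markers rose, and with detection required in all 6 mice 1 neutrophil marker was measured, which rose. The part of these cells in the granule gene values was not tested. Of the B cell markers 0 of 4 tested passed (limma, and 0 at an unadjusted p under 0.05). Of 3 plasma cell markers tested Xbp1 rose (1.39), and both erythroid markers tested rose, Alas2 by 1.64 and Klf1 to a level at least 1.57-fold higher. Of 3 platelet markers Ppbp rose (at least 1.35-fold higher) and Gp1bb fell (at least 3.02-fold lower), and of 4 plasmacytoid dendritic cell markers Cox6a2 fell (-0.82). Folds marked at least are set against the detection level, since Ppbp and Klf1 lay below it in all B6 mice and Gp1bb in all TLR7tg mice, and these genes passed the filter only through their brighter group. Klf1 and Ppbp lost their calls without each mouse except TLR7tg replicate 1, and Cox6a2 lost its call without TLR7tg replicate 2 or any B6 mouse.

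Genes that process, carry and release granule contents are counted beside the 7.74% of all genes that were higher and the 6.97% that were lower, and nothing particular to the lists is read from the counts. Of 8 tested cathepsin and cystatin genes 3 rose, 1 fell and 4 did not pass, with a median of 1.01. Cst7 encodes cystatin F, an inhibitor of cathepsins in cytotoxic granules. It had 7.05, 6.96 and 7.67 in TLR7tg mice, all below the B6 mice, and fell by 2.41 (SE 0.28, limma adjusted p = 0.000984). Ctsh, a lysosomal cathepsin, rose by 1.99, the cystatin gene Cst3 rose by 1.196 and the cathepsin gene Ctsz rose by 1.44, the last losing its call without any single B6 mouse and without TLR7tg replicate 3. Ctsc, whose product dipeptidyl peptidase I activates granzymes, differed by 0.83 and did not pass (limma adjusted p = 0.191), but did under 5 alternatives, among them the one without TLR7tg replicate 1 (limma adjusted p = 0.00872). It was chosen after its values were seen.

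Of 21 tested genes of the secretion machinery 4 rose, 2 fell and 15 did not pass, with a median of 0.24. The synaptotagmin-like genes Sytl2 and Sytl3, whose products bind Rab27 on secretory granules, both fell. Sytl2 differed by -3.23 (SE 0.25, limma adjusted p = 0.000215) and Sytl3 by -2.996 (SE 0.28, limma adjusted p = 0.000410). Sytl2 had 7.18, 7.48 and 8.09 in TLR7tg mice and averaged 10.82 ± 0.22 (SD, n = 3) in B6. The genes of the docking GTPase Rab27a (-0.56) and of the priming factor Munc13-4, Unc13d (-0.56) missed the threshold and were picked with their values known (limma adjusted p = 0.0882 and 0.154). The vesicle fusion genes Stx7 (1.06), Snap23 (0.74) and Vamp4 (0.67) rose, as did the lysosomal membrane gene Lamp2 (1.49), whose call was lost without TLR7tg replicate 2 or 3 or B6 replicate 1 or 2. Snap23 and Vamp4 were chosen after their values were seen. Lamp1, a granule membrane protein used as a degranulation marker and chosen after its values were seen, differed by 1.02 (limma adjusted p = 0.0575). Lamp1 passed under 6 alternatives, among them the one without TLR7tg replicate 1 (limma adjusted p = 0.0208). Another was the block of the named slide against the remaining mice (limma adjusted p = 0.00168). Rab27a passed under 2 alternatives (lowest limma adjusted p = 0.0455) and Unc13d under 1 (limma adjusted p = 0.0309). Leaving out B6 replicate 2 left 1 gene of this list that rose, and leaving out TLR7tg replicate 2, B6 replicate 1 or B6 replicate 3 left 2.

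Relatives of the granule proteases and of Serpinb9 were mostly dim. Of 12 further genes of the granzyme and chymase cluster on the array 7 lay below the detection level in all 6 mice, among them Gzme, Gzmf, Gzmg and Gzmn. Gzmd (-0.05) and Mcpt9 (0.03), chosen after their values were seen, were the 2 tested, and neither passed. Of 11 intracellular serpin genes 6 lay below the level in all mice, namely Serpinb2, Serpinb9c, Serpinb9d, Serpinb9e, Serpinb9f and Serpinb9g. Serpinb6a rose by 1.31 (0.59 and adjusted p = 0.0865, limma, as the mean of its probes) and Serpina3f by 1.07, while Serpinb6b, chosen after its values were seen, differed by -1.31 (limma adjusted p = 0.0527). Serpinb6b passed under 9 of its alternatives (lowest limma adjusted p = 0.00125), among them those without TLR7tg replicate 3 or B6 replicate 1. Serpina3f lost its call without each mouse other than TLR7tg replicate 1.

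Other effector genes of NK cells and their regulators fell in part, beside 6.97% of all genes that were lower and 7.74% that were higher. Of 11 tested death ligand and secreted effector genes 5 fell and 1 rose, with a median of -1.73. The chemokine genes Ccl5 (-3.20), Xcl1 (-2.83) and Ccl3 (-1.76), the death ligand gene Fasl (-2.96) and the interferon gamma gene Ifng (-2.56) fell, and the cytokine gene Tnf rose (0.99). Ccl3 and Tnf were chosen after their values were seen, and 0 genes of this list rose (limma) without TLR7tg replicate 3 or any single B6 mouse. Of 10 tested transcription factor genes of the cytotoxic programme 6 fell, 0 rose and 4 did not pass (limma), with a median of -2.07. Stat4, which carries the interleukin-12 signal (-3.13), Tbx21, encoding the T-box factor T-bet (-2.90), and Id2 (-2.35) were among those that fell. Eomes, encoding another T-box factor, had 6.69, 6.65 and 6.72 in TLR7tg mice, all below the detection level, and averaged 9.32 ± 0.03 (SD, n = 3) in B6. It was at least 5.36-fold lower, the B6 mean set against the detection level, and was tested only through the B6 mice. Ets1 (-2.07) and Gata3 (-2.06), chosen after their values were seen, also fell. Which cells of the sample hold these transcripts was not measured.

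**Figure D5:**
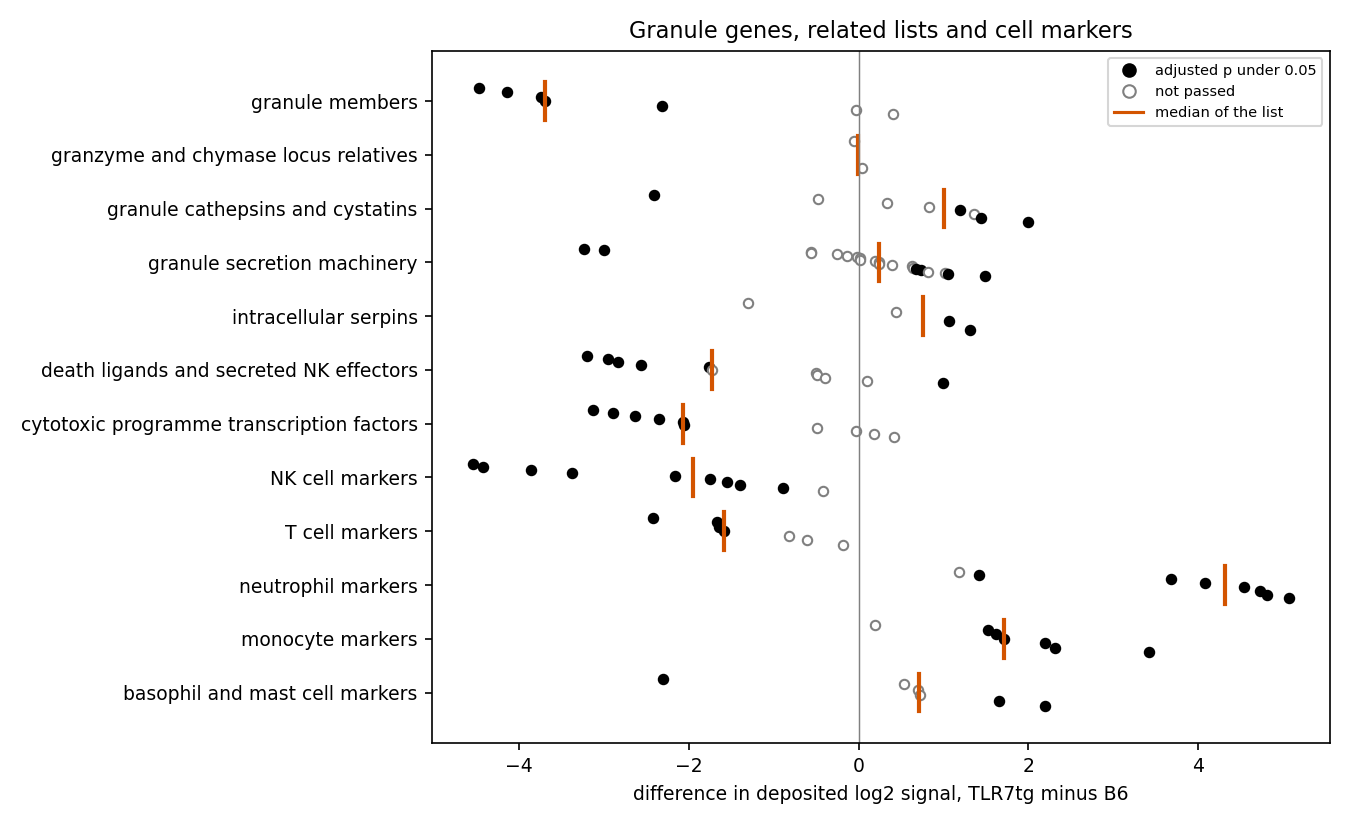
Difference in deposited log2 signal, TLR7tg minus B6 (horizontal axis), of each tested gene of the granule genes, of 6 related lists and of 5 cell marker lists, filled where adjusted p was under 0.05, with an orange line at the median of each list. The medians are -3.70 for the 7 tested granule genes, -1.96 for NK cell markers, 1.01 for cathepsins and cystatins and 4.31 for neutrophil markers.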

How the data were processed

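RNA of 6 mice, 3 per group, was measured on an Illumina mouse bead array. The authors deposited log2 values of 45281 probes per mouse, whose columns share a nearly identical distribution and lack background subtraction as far as the values show. The sources used here name no normalisation tool. Per the labels, replicate 1 of each group is an average of 2 technical arrays. The deposited scanner table holds linear intensity values and, per the file headers, detection p-values. Arrays were assigned only for these 2 mice, and the other 4 signal columns and 4 detection columns were not used. A background correction of all scanner arrays was therefore not possible, and the tests ran on the deposited log2 values (limma 3.58.1, lmFit and eBayes, under R 4.3.3), with Benjamini-Hochberg adjustment over all probes kept and a threshold of 0.05. The number of arrays limits the precision.

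The detection level of 6.9 is the start of the lowest bin of width 0.1 from which upward 95% or more of the probes were detected (averaged p-value below 0.05) in each of these mice. Gene names came from the platform annotation, updated by gene identifier. Summed linear signals are sums of 2 to the power of the deposited values, with background included. Named genes were the 10 granule genes, Tlr7 and up to 4 genes per list with the largest difference past the threshold. The granule genes and lists were chosen with earlier results of these data known. The test was also run on simulated data with independent noise for each probe. That run held no correlation between genes and no slide effect, so it does not cover them. Protein sequences and the promoter of Ctsw were not used here. Alternatives covered filters, normexp background correction of the deposited values, variance models, array weights, blocks, probe choice and leaving out each mouse.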

Additional observations from a re-analysis of the deposited data

How the results depend on the processing

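The 5 granule genes fell under every alternative that measured them, with adjusted p from 4.08e-05 to 0.0288 (limma); Cma1 was not measured where detection in all 6 mice was required, leaving 4 falls. Leaving out each mouse in turn gave differences from -4.37 to -3.13 for Prf1, from -5.09 to -4.10 for Nkg7, from -4.90 to -3.59 for Ctsw, from -4.03 to -3.54 for Cma1 and from -2.55 to -2.08 for Gzmm. Srgn did not pass in any of its 17 alternatives (0.30 to 0.61). Gzmk, never past the threshold, changed sign with array weights (0.11) and in the 4 mice without a named slide (0.15). It also changed sign with single mice left out (-0.15 to 0.13). Gzmd (-0.16 to 0.054) and Mcpt9 (-0.12 to 0.27) changed sign with single mice left out, and the cause was not tested. Over all genes 710 were higher and 639 lower. Without a filter 459 were higher, where more probes are adjusted for. With single mice left out 421 to 756 were higher and 341 to 629 lower, the lowest counts being without B6 replicate 2, and 411 were lower without B6 replicate 3. With the mice of the named slide and the remaining 4 mice as blocks 1083 were lower. The labels do not name the slide of those 4 mice. With a replicate block of mice with neighbouring identifiers 1118 were higher and 1166 lower, and the same 5 granule genes fell. The identifiers are no stated pairing: deviations from the group means correlated at 0.63, 0.12 and 0.45 in the 3 neighbour pairs, and TLR7tg replicate 2 correlated more with B6 replicate 3 (0.21). Of the other lists 29 genes were higher, against 10 without a filter, 16 with detection in all 6 mice and 15 to 31 with single mice left out (leaving out B6 replicate 2 gave 15, B6 replicate 3 gave 16 and TLR7tg replicate 2 gave 17). Signal near the detection level limits what can be said of Gzmb, Gzmc, Gzmk and Serpinb9, and of the size of the Cma1 fall.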
